A study of Mus musculus with 2 samples.

Results

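The Penk Drd2 striatal neurons are the cells of the late embryonic mouse forebrain whose transcripts match the indirect pathway of the striatum. They were selected on their own transcript counts in single-cell RNA-seq of 2 libraries, so every gene in the selection describes the choice and is no finding. A droplet was kept with at least 1000 unique molecular identifiers (UMIs, 1 per captured transcript), at least 500 genes and at most 10% mitochondrial UMIs. A member then needed at least 2 UMIs in total of Penk, Drd2, Adora2a and Gpr6 and at least 2 of Dlx6os1 and Gad2. It could hold at most 1 UMI of Isl1 and Ebf1 together, none of Lhx6 or Sst, at most 1 of Nkx2-1 and Lhx8, and at most 1 of the division genes Top2a, Mki67 and Cdk1. This gave 388 members among 21941 called cells: 159 of 9086 in the wild-type library and 229 of 12855 in the library labelled Cyfip2 knockout.

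Each library came from 2 forebrains pooled at embryonic day 18.5, 1 pool of wild-type embryos and 1 pool of Cyfip2 knockout embryos, dissociated with papain. The deletion's construction is not given in the sources used here. Cyfip2 encodes a subunit of the WAVE complex, which drives branched actin assembly. With 1 library per genotype there is no replicate, so no test between genotypes was made. All intervals are 95% and cover counting error only, not differences between embryos or between cells, and they are not adjusted over genes.

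On mm10 with GENCODE vM21 annotation, Penk lies at chr4:4133531-4138819, Drd2 at chr9:49340627-49408177, Adora2a at chr10:75316877-75334784 and Gpr6 at chr10:41069977-41072285.

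The striatum sends its output through 2 kinds of GABAergic projection neuron. Neurons of the indirect pathway carry the dopamine receptor Drd2, the adenosine receptor Adora2a, the constitutively active receptor Gpr6 and the enkephalin precursor Penk, and project to the external globus pallidus. Neurons of the direct pathway carry Drd1 and the substance P precursor Tac1, and their development depends on the transcription factors Isl1 and Ebf1. Both arise from the lateral ganglionic eminence, and the factors Sp9 and Six3 are needed for the indirect kind to form.

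The members held 1453509 UMIs in the wild-type library and 1994557 in the knockout-labelled library, with medians of 8800 and 7830 UMIs per cell and 3075 and 2923 genes per cell. Of the called droplet barcodes, 32 occurred in both libraries, and 1 barcode was a member in both. Xist had a UMI in 158 of 159 and 225 of 229 members, and Y-linked genes had none in either library. Cyfip2 itself was detected in both libraries, at 77.1 counts per 1000000 UMIs (CPM) in wild-type members and 92.8 CPM in knockout-labelled members. Counts at the 3' end do not show whether a transcript makes protein, so this value does not check the genotype. The 9 genes of the WAVE complex list had 7 measured members, with a median log2 ratio between libraries of 0.03. None of the 7 differed by the size rule given below, beside 2.25% of all measured genes.

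Genes that the selection did not use describe the members further, though some are not particular to them. Other GABAergic cells held Sp9 at 376 CPM in the wild-type and 347 CPM in the knockout-labelled library. Sp9 was at 661 CPM in wild-type members and 615 CPM in knockout-labelled members, and had a UMI in 154 of 159 and 210 of 229 cells. Six3 was at 660 and 713 CPM in the same order. Gucy1a1, a subunit of the nitric oxide receptor guanylyl cyclase, was at 842 and 924 CPM. The striatal factors Bcl11b (2405 and 2168 CPM), Foxp1 (2375 and 1971 CPM) and Meis2 (3395 and 3477 CPM) were among the more abundant. Tac1 had 0 UMIs in wild-type members and 1 in knockout-labelled members, and Drd1 had 1 in each.

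Several genes of the mature striatum were low. Ppp1r1b, the dopamine-regulated phosphatase inhibitor of adult striatum, was at 6.88 and 6.02 CPM, Adcy5 at 5.50 and 8.02 CPM, and Rgs9 at 4.82 and 5.52 CPM.

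**Figure D1:**
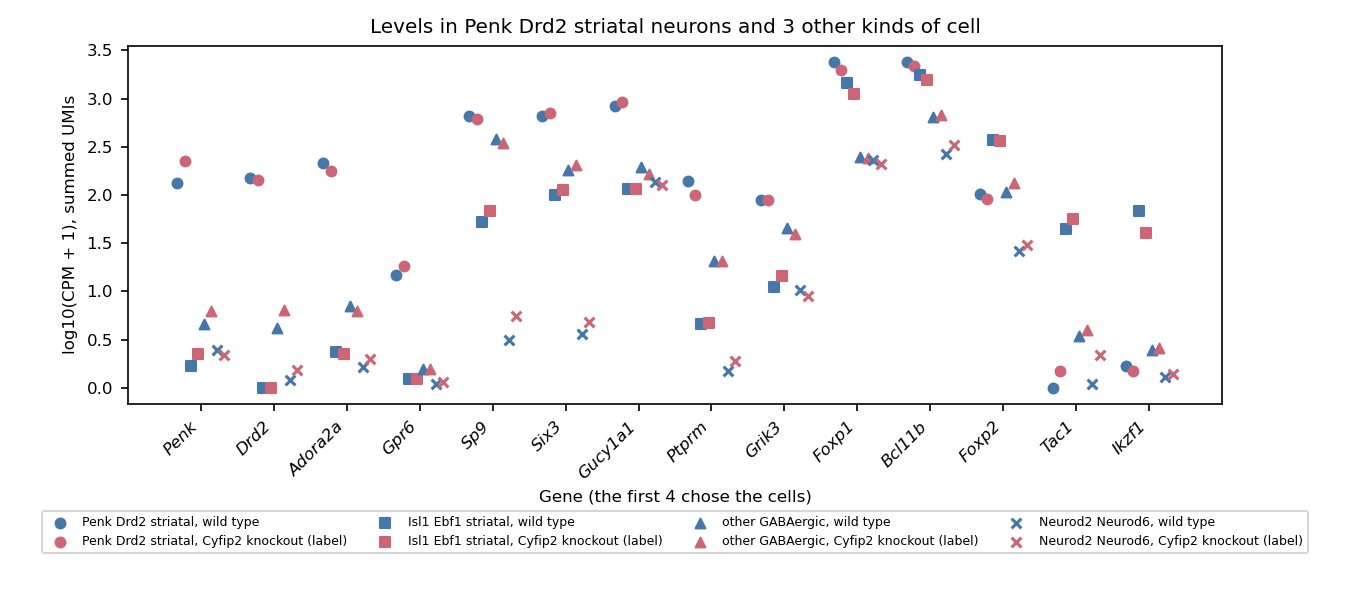
Levels of 14 genes as log10(CPM + 1) of summed UMIs (y axis) in the Penk Drd2 striatal neurons, the Isl1 Ebf1 striatal neurons, other GABAergic cells and cells with Neurod2 and Neurod6, 1 point per kind of cell and library. Sp9, Six3, Gucy1a1 and Ptprm were higher in the Penk Drd2 striatal neurons than in the other kinds of cell in both libraries, and the first 4 genes chose the cells.

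Drd2 and Adora2a brought in most members, and Penk a minority. In wild-type members Adora2a had a UMI in 77.4% (70.1 to 83.6), Drd2 in 74.8% (67.4 to 81.4), Penk in 24.5% (18.1 to 32.0) and Gpr6 in 10.1% (5.86 to 15.8). In knockout-labelled members the shares were 67.2% (60.8 to 73.3) for Adora2a, 62.9% (56.3 to 69.2) for Drd2, 36.2% (30.0 to 42.8) for Penk and 7.86% (4.72 to 12.1) for Gpr6. Because a member needs 2 UMIs of these genes together, a larger share with one lowers the share that needs another.

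Penk was uneven from cell to cell. Its level over all members was 131 CPM in the wild-type library and 225 CPM in the knockout-labelled library. Among cells with a Penk UMI the levels were nearer, at 479 and 586 CPM. The 5 cells richest in Penk held 44.5% of its wild-type UMIs and 26.3% of its knockout-labelled UMIs, and 4 and 16 cells had 10 or more. Drd2, by contrast, reached at most 5 and 6 UMIs in a cell, with levels of 150 and 142 CPM, and Adora2a at most 9 in either library, with 214 and 178 CPM. When each cell was thinned to 3000 UMIs, leaving out 10 shallower members in each library, Penk had a UMI in 15.4% of 149 and 27.9% of 219 members. Drd2 then stood at 37.6% and 37.0%, and Adora2a at 41.6% and 41.1%.

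**Figure D2:**
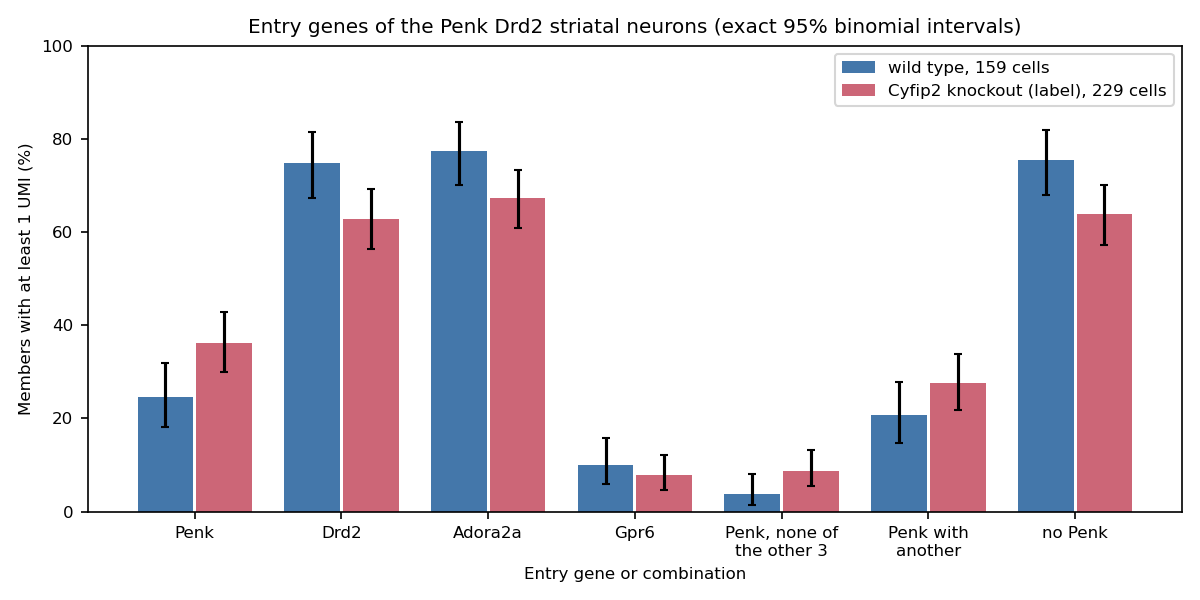
Share of members with at least 1 UMI of each entry gene or combination (y axis, %), with exact 95% binomial intervals, for 159 wild-type and 229 knockout-labelled members. Penk was found in a larger share of knockout-labelled members (36.2% against 24.5%), and most members in both libraries had no Penk UMI.

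A small group of members had Penk and none of the other 3 entry genes. It differed from the members without Penk in genes that the selection did not use. There were 6 such cells in the wild-type library and 20 in the knockout-labelled library, against 120 and 146 members without Penk. The pooled values below thus mix the libraries in unlike parts. The 96 members with Penk and another entry gene were left out of this contrast. Over both libraries they held Tshz1 at 452 CPM against 59.1 CPM in the 266 members without Penk (log2 ratio 2.93, 2.56 to 3.31). Foxp2 was at 496 against 81.8 CPM (2.60, 2.26 to 2.94) and Pbx3 at 513 against 87.5 CPM (2.55, 2.22 to 2.88). These transcription factors were found in 12, 8 and 12 of the 26 cells. Npy, at 187 against 3.50 CPM, came from 2 cells.

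Several genes of the indirect program were lower in the cells with Penk alone. Ikzf2 was at 32.6 CPM against 211 CPM (log2 ratio -2.70, -3.92 to -1.71), Grik3 at 36.6 against 106 CPM (-1.53, -2.68 to -0.58) and Gucy1a1 at 407 against 893 CPM (-1.13, -1.44 to -0.84). Sp9 was at 456 against 710 CPM, while Six3 (590 against 755 CPM) and Ptprm (118 against 106 CPM) differed by less than 1.5-fold. Whether these 26 cells are one kind of neuron was not tested.

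Cells just inside the threshold were set beside the rest of the members. The 41 wild-type and 85 knockout-labelled members with exactly 2 entry UMIs held Sp9 at 654 and 764 CPM, Six3 at 754 and 862 CPM and Foxp1 at 2459 and 1797 CPM. The 118 and 144 members with 3 or more held Sp9 at 663 and 551 CPM, Six3 at 634 and 649 CPM and Foxp1 at 2351 and 2046 CPM. Sp8 was at 12.5 and 11.7 CPM with 2 entry UMIs and at 2.65 and 7.16 CPM with 3 or more. Just outside it, the 63 and 109 cells with 1 entry UMI that met every other criterion held Sp9 at 573 and 514 CPM, Six3 at 971 and 725 CPM and Foxp1 at 1392 and 898 CPM. Adarb2 was at 92.9 and 119 CPM with 1 entry UMI, against 21.9 and 28.4 CPM with 2 and 11.5 and 24.4 CPM with 3 or more. Cells with no entry UMI had Foxp1 at 201 and 204 CPM, Sp9 at 391 and 365 CPM and Six3 at 303 and 320 CPM. Sp9 and Six3 were thus abundant on both sides of the threshold.

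Some cells outside the kind also reached 2 entry UMIs, to which free RNA in droplets can add. Among cells with Neurod2 and Neurod6, which should lack these genes, 19 of 5390 (0.353%, 0.212 to 0.550) in the wild-type library and 22 of 6633 (0.332%, 0.208 to 0.502) in the knockout-labelled library reached 2, at median depths of 11305 and 9439 UMIs. Among microglia, 0 of 91 and 0 of 201 cells did, which by a floor of 3 cells allows shares of up to 3.30% and 1.49% (exact upper limits 3.97% and 1.82%). Among the other GABAergic cells, 20 of 1373 (1.46%, 0.892 to 2.24) and 38 of 2339 (1.62%, 1.15 to 2.22) did, at median depths of 7426 and 6934 UMIs. Those 20 and 38 cells missed some other criterion. The totals of 1373 and 2339 also hold cells that missed only the entry threshold, which lowers these shares. Of such cells, 594 and 1195 had 0 entry UMIs and 63 and 109 had 1.

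The members' shares of called cells in the libraries differed by less than counting error. The share was 1.75% (1.49 to 2.04) in the wild-type library and 1.78% (1.56 to 2.03) in the knockout-labelled library, a ratio of 1.02 (0.828 to 1.25). The Isl1 Ebf1 striatal neurons, chosen by the same criteria but with at least 2 Isl1 and Ebf1 UMIs and at most 1 entry UMI, made up 4.60% (418 cells) and 6.67% (857 cells), a ratio of 1.45 (1.29 to 1.63).

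Of the striatal neurons of both kinds, the Penk Drd2 kind was therefore a smaller share in the knockout-labelled library, 21.1% (18.7 to 23.6) against 27.6% (23.9 to 31.4). The ratio of these shares was 0.765 (0.622 to 0.943). No likely doublets were left out of these shares. The highest doublet scores took in 7.66% of wild-type and 13.1% of knockout-labelled cells of the Isl1 Ebf1 kind. Among the members they took in 5.66% and 6.11%. With every cell thinned to 3000 UMIs before the selection, 39 and 65 members were left and the ratio was 0.863 (0.572 to 1.32), an interval that includes 1. The part of dissection and dissociation in these shares cannot be told apart from genotype with 1 library each.

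The Penk Drd2 and Isl1 Ebf1 striatal neurons of the same library were then set side by side. Because the rule separated them by genes of these same cells, this contrast is a description. Genes entered with 20 CPM or more in any of the 4 sums and 100 UMIs or more in all, and a gene counted as different when it differed by at least 1.5-fold with an interval that excluded no change, the same way in both libraries. Of 7186 measured genes, 170 were higher in the Penk Drd2 kind (2.37%) and 221 were lower (3.08%). The log2 ratios of the 2 libraries had a Pearson r of 0.75 across 7179 genes, which are not independent replicates.

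Among the genes higher in the Penk Drd2 striatal neurons were cell surface and signalling genes. Ptprm, a receptor tyrosine phosphatase that mediates adhesion, was at 140 and 99.3 CPM against 3.63 and 3.65 CPM, log2 ratios of 5.27 and 4.76. Slit3, a secreted guidance ligand, was at 78.4 and 74.2 CPM against 2.95 and 3.77 CPM. P2ry1, an ADP receptor, was at 26.1 and 23.1 CPM against 0.907 and 1.46 CPM. Scube1, a secreted and membrane-bound EGF-domain protein, was at 279 and 240 CPM against 23.4 and 18.6 CPM.

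The gap was widest for Ppm1j, a protein phosphatase, with log2 ratios of 6.36 and 7.77 at 37.2 and 26.6 CPM. Skap2 (4.49 and 4.95), Ndst3 (3.35 and 2.97) and Igsf21 (3.16 and 2.80) also ranked among the first 12. Gal, the galanin precursor, had log2 ratios of 4.66 and 4.28 but UMIs in only 9 and 8 members. With at least 3 entry UMIs required, its smaller log2 ratio was 0.10.

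Transcription factors separated the kinds as well. Sp9 was at 51.3 and 66.8 CPM in the Isl1 Ebf1 kind, log2 ratios of 3.69 and 3.20, and Six3 at 98.7 and 112 CPM, log2 ratios of 2.74 and 2.67. Six3os1, the antisense transcript that overlaps Six3, had log2 ratios of 3.79 and 3.50, and the 2 cannot be told apart where the counting did not use strand. Ikzf2 (3.52 and 2.74), Sox9 (3.37 and 2.73) and Sox2 (2.97 and 2.77) were also higher. Sox2 and Sox9 are best known from neural progenitors, yet they stood at 576 and 656 CPM and at 332 and 238 CPM in these non-dividing cells. The other progenitor genes Vim (21.3 and 18.6 CPM) and Fabp7 (20.0 and 15.0 CPM) were lower than in the Isl1 Ebf1 kind.

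All 7 measured genes of the 15 on the indirect-pathway list were higher in both libraries. They were Ptprm, Sp9, Gucy1a1, Grik3, Six3, Gucy1b1 and Adk. Members that passed a filter on level through the kind where they are high had to differ, so this count supports nothing. The other 8 genes, such as Oprd1 and Gpr52, were too low to measure. Gucy1a1 and Gucy1b1, which together form the guanylyl cyclase, had log2 ratios of 2.88 and 3.02 and of 1.68 and 1.72.

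Receptors and cyclic nucleotide genes were split. Of 29 measured genes of the dopamine and cAMP list, 8 were higher and 3 lower, beside 2.37% and 3.08% of all measured genes. The list's median log2 ratios were 0.03 and 0.05. Gng7 (2.23 and 2.33), Rgs8 (1.69 and 1.41), Pde2a (1.13 and 1.32) and Gnal (1.01 and 1.31), the G protein subunit of striatal dopamine and adenosine receptors, were higher. Rgs4 (-5.01 and -2.05), Rgs2 (-1.18 and -1.13) and Gnai1 (-1.07 and -0.73) were lower. Of 14 glutamate receptor genes, Grik3, Gria1 (2.05 and 1.95), Grm5 (1.11 and 1.83) and Dlg2 (0.99 and 0.65) were higher, and Gria4, Grik2 and Grin2b were lower. Their median log2 ratios were 0.01 and 0.16.

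The genes lower in the Penk Drd2 kind included 2 of the shared striatal list, Ikzf1 and Foxp2. Of the 17 measured genes of that list, 5 were higher, where 2.37% of all measured genes were higher and 3.08% lower. Ikzf1 had log2 ratios of -6.62 and -6.29, with 1 UMI in each library's members. Foxp2 had -1.86 and -2.03. Zic4 had 0 UMIs in the members of either library, which makes it at least 19.2-fold and at least 40.6-fold lower, from a floor of 3 UMIs in each sum. Col25a1 (-5.35 and -5.36), Zic2 (-4.72 and -5.56), Aldh1a3 (-5.37 and -4.39) and Npy1r (-4.59 and -4.13) ranked with them, as did Frmd6 (-4.12 and -3.95), Lingo2 (-4.70 and -3.74) and Sema6a (-3.23 and -3.24).

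Long adhesion genes leaned towards the Isl1 Ebf1 kind. Of 38 measured genes of that list, 16 were lower in the Penk Drd2 kind and 2, Nrxn3 (0.85 and 0.82) and Adgrl2 (0.63 and 0.81), were higher. The list's median log2 ratios were -0.55 and -0.32, beside 0.01 and -0.01 over all measured genes. Of 33 axon guidance genes, 8 were lower, among them Sema6d (-1.24 and -1.24), Dcc (-1.06 and -0.87) and Chl1 (-1.48 and -0.67). Epha7 was the 1 that was higher (1.08 and 1.24). Beside both lists, 2.37% of all measured genes were higher and 3.08% lower.

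Of 16 measured genes of the immature neuron list, 2 were lower and 1, Sox2, higher. Of 20 of the maturing neuron list, 5 were lower and 1, Nrgn, higher. The neurofilament gene Nefl had log2 ratios of -5.22 and -3.25 and Nefm -4.46 and -2.29. Syt4 (-2.39 and -1.79), Stmn2 (-1.04 and -0.73) and Gap43 (-0.96 and -0.66) were also lower, as were 3 of 9 immediate early genes, Jun (-0.94 and -0.94), Junb (-0.91 and -1.13) and Egr1 (-0.89 and -1.04). None of the 39 nuclear respiratory chain genes, 14 genes of the FMRP and translation list or 7 WAVE complex genes measured differed by the size rule. Over all measured genes, 2.37% were higher and 3.08% lower. Median depth was 8800 and 7830 UMIs in the Penk Drd2 kind and 9766.5 and 8276 in the Isl1 Ebf1 kind. With cells thinned to 3000 UMIs, which left out 10 and 10 shallower cells of the former and 22 and 79 of the latter, Sp9 had a UMI in 82.6% and 77.2% of the former and 9.34% and 12.7% of the latter, and Foxp2 in 16.8% and 13.2% against 55.1% and 50.9%. Without thinning these shares were 96.9% and 91.7% against 17.0% and 20.2% for Sp9, and 28.9% and 24.9% against 73.2% and 68.8% for Foxp2.

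**Figure D3:**
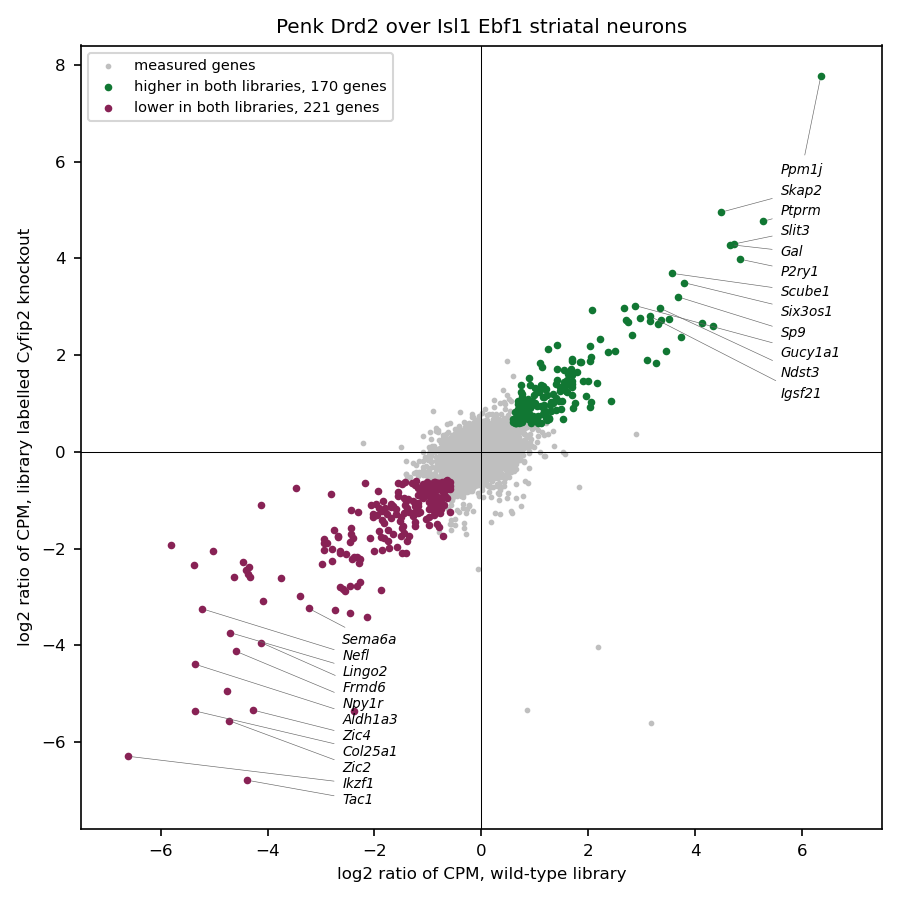
Log2 ratio of CPM between Penk Drd2 and Isl1 Ebf1 striatal neurons in the wild-type library (x axis) and in the library labelled Cyfip2 knockout (y axis), 1 point per measured gene; where a count was 0 the point is a bound from 3 UMIs. The 170 genes higher and 221 lower in both libraries lie along the diagonal, and genes with the widest gaps on each side are named.

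Between the libraries, few genes of the Penk Drd2 striatal neurons differed. The genes that chose the cells were left out of this count. Of these, Penk was at 131 and 225 CPM, a log2 ratio of 0.77 (0.53 to 1.03), and Drd2 at 150 and 142 CPM, which the selection can shape. Other genes entered with 20 CPM or more in 1 of the libraries and 100 UMIs or more over both. Of 5203 measured genes, 59 were higher in the knockout-labelled library (1.13%) and 58 lower (1.11%) by the same size rule, 117 in all (2.25%). The median log2 ratio was -0.02, with quartiles of -0.16 and 0.12.

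None of the 7 measured genes of the indirect-pathway list and none of the 14 of the shared striatal list differed by the rule. With 2.25% of all measured genes called, a count of 0 in lists this short says little about the lists. Sp9 had a log2 ratio of -0.11 (-0.23 to 0.02), Six3 of 0.11 (-0.01 to 0.23), Gucy1a1 of 0.13 (0.03 to 0.24), Foxp1 of -0.27 (-0.34 to -0.20) and Bcl11b of -0.15 (-0.21 to -0.09). Ptprm, at 140 and 99.3 CPM, had a log2 ratio of -0.50 (-0.79 to -0.21), short of 1.5-fold. Of 23 dopamine and cAMP genes, 35 actin regulators and 39 nuclear respiratory chain genes measured, none differed, beside 2.25% of all measured genes.

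Rprm, a cell cycle arrest gene, had the widest gap upwards. It was at 12.4 CPM in wild-type and 44.6 CPM in knockout-labelled members, a log2 ratio of 1.85 (1.11 to 2.67), and was found in 15 and 29 cells. In the Isl1 Ebf1 kind it was far more abundant, at 254 and 258 CPM, with no gap between libraries. It was also present in free RNA, at 102 CPM in the wild-type and 106 CPM in the knockout-labelled library. With the free RNA profile subtracted at an assumed 5% of each sum, its log2 ratio was 2.44. No interval was worked out for the subtracted counts.

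Tenm1, a teneurin adhesion protein encoded on the X chromosome, was at 38.5 and 90.2 CPM, a log2 ratio of 1.23 (0.79 to 1.69), and was higher in the Isl1 Ebf1 kind too (1.07). Tshz1 was at 61.2 and 129 CPM (1.08, 0.73 to 1.44), with 0.91 in the Isl1 Ebf1 kind. Without the members that entered by Penk alone, which are rich in Tshz1 and more frequent in the knockout-labelled library, Tshz1 was still called higher.

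Olfm1 (1.18), Fat3 (1.17), Tmem130 (1.13) and Fam126b (0.99) were also higher by the rule among the first 10 and did not rest on 1 cell. Free RNA held Olfm1 at 130 and 138 CPM, against 27.5 and 62.2 CPM in members. It held Fat3 at 39.4 and 40.7 CPM, against 29.6 and 66.7 CPM. For Tmem130 it was 18.8 and 24.9 against 18.6 and 40.6 CPM, and for Fam126b 23.7 and 19.0 against 20.0 and 39.6 CPM. The part of free RNA in these ratios was not tested. Tmem130 fell outside the rule when at least 3 entry UMIs were required, at 0.64 (-0.10 to 1.41). Among long adhesion genes, Tenm1 and Pcdh17 (0.67, 0.25 to 1.10) were higher, and none of the 26 measured was lower. The list's median was 0.06, beside -0.02 over all genes. Of 22 axon guidance genes, Nrcam (0.89, 0.38 to 1.43) was higher and Cntn2 lower. Beside both lists, 1.13% of all measured genes were higher and 1.11% lower.

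Of 35 measured factors of the lateral ganglionic eminence list, Tshz1 and Tshz2 (0.64, 0.36 to 0.94) were higher, and Zeb2 and Nfix lower. The shares over all measured genes were 1.13% higher and 1.11% lower. The 11 measured mitochondrially encoded genes had a median log2 ratio of 0.14, none past 1.5-fold. The 7 measured immediate early genes had a median of -0.32, also with none called.

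3 of the higher genes need the values beside them. Sox5 had a log2 ratio of 1.62 (0.95 to 2.34) from 15 cells in each library, and 1 cell held 49.5% of its knockout-labelled UMIs. It was -0.56 (-1.88 to 0.75) without members with 2 or more UMIs of Neurod2 and Neurod6, and 0.68 (-0.07 to 1.46) without those that entered by Penk alone. Nap1l5 had 1.19 (0.82 to 1.56), and 1 cell held 40.5% of its knockout-labelled UMIs. It was 0.53 (0.13 to 0.95) without the richest cell in each library and 0.32 (-0.13 to 0.78) with at least 3 entry UMIs. Ttr, the choroid plexus transthyretin, had 1.43 (0.92 to 1.97) at 27.5 and 74.2 CPM, while the free RNA held it at 1016 and 2070 CPM. Ttr was also higher in the Isl1 Ebf1 kind, at 1.26.

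Several genes lower in knockout-labelled members are known from cortical excitatory neurons. Cntn2, an axonal adhesion protein, was at 79.1 and 26.1 CPM, a log2 ratio of -1.60 (-2.10 to -1.12). Lhx2, a homeobox factor of the developing cortex, was at 42.7 and 20.6 CPM (-1.05, -1.66 to -0.46). Zeb2 was at 192 and 104 CPM (-0.88, -1.15 to -0.62), Nfix at 246 and 140 CPM (-0.81, -1.04 to -0.58) and Neurod2 at 129 and 82.7 CPM (-0.64, -0.95 to -0.33). Zeb2 was not particular to excitatory cells in these libraries. It was at 1032 and 859 CPM in other GABAergic cells, and at 983 and 1100 CPM in cells with Neurod2 and Neurod6.

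The 9 excitatory markers together summed to 426 CPM in wild-type members and 320 CPM in knockout-labelled members, with none at 0. In the Isl1 Ebf1 kind the order was the other way, at 405 and 520 CPM. Members with 2 or more UMIs of Neurod2 and Neurod6 numbered 19 of 159 and 27 of 229. Without them, Hs6st2 had a log2 ratio of 0.49 (-0.69 to 1.76), Zeb2 of -0.17 (-0.99 to 0.65), Lhx2 of -0.59 (-2.06 to 0.87) and Cntn2 of -0.92 (-1.98 to 0.10). The ratios of Cntn2 and Lhx2 were still past 1.5-fold, but all 4 intervals included no change, so all 4 missed the size rule. Without the highest doublet scores, Hs6st2 (0.083) and Zeb2 (-0.58) missed it too.

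The other genes lower by the rule among the first 10 held without those members. St3gal2, a sialyltransferase, was at 47.5 and 18.0 CPM (-1.40, -2.02 to -0.79), Stt3a, a catalytic subunit of the oligosaccharyltransferase, at 43.3 and 19.6 CPM (-1.15, -1.76 to -0.55), and Dhx40 at 53.0 and 28.1 CPM (-0.92, -1.44 to -0.40). Tafa2, a secreted chemokine-like protein, was at 53.7 and 29.1 CPM (-0.88, -1.40 to -0.38), and Grk6, a G protein-coupled receptor kinase, at 50.2 and 27.6 CPM (-0.86, -1.40 to -0.34). In the Isl1 Ebf1 kind St3gal2, Stt3a, Dhx40 and Grk6 had log2 ratios of -0.16, -0.21, -0.08 and 0.01.

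**Figure D4:**
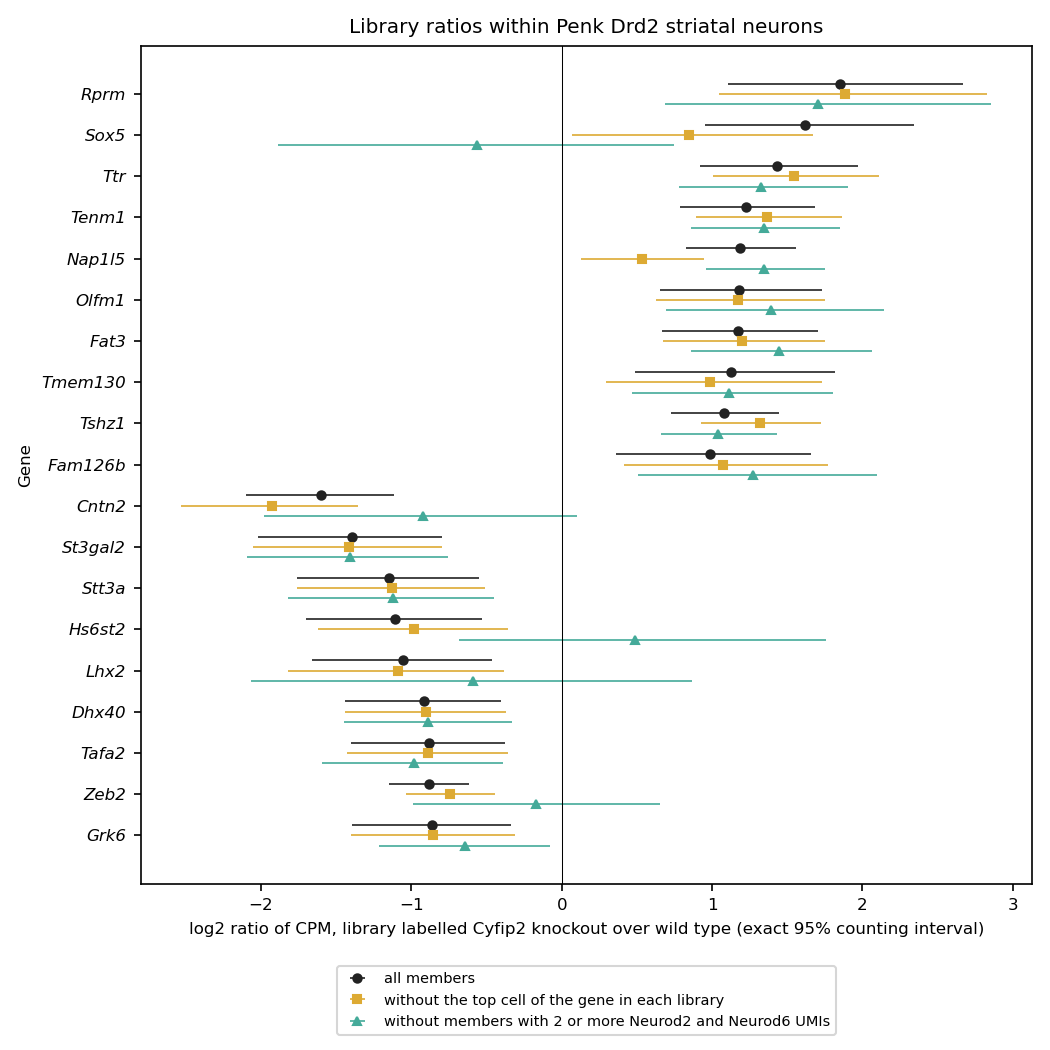
Log2 ratio of CPM between the library labelled Cyfip2 knockout and the wild-type library (x axis, exact 95% counting intervals) for 19 genes with the widest gaps, over all members and after leaving out 2 sets of cells. Sox5 and Hs6st2 changed sign without members with 2 or more Neurod2 and Neurod6 UMIs, and Nap1l5 moved to 0.53 without its richest cells.

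Markers of most other cell types were scarce in the members. The 8 microglial markers summed to 6.19 and 5.52 CPM, with Cx3cr1 and P2ry12 at 0 in both libraries. The 8 vascular markers summed to 2.06 and 7.52 CPM with Kcnj8 at 0, and the 6 oligodendrocyte markers had 1 and 3 UMIs with Olig1, Cspg4 and Gpr17 at 0.

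Among markers of other GABAergic neurons, the 9 septal and ventral genes summed to 15.8 and 27.6 CPM, with Zic4, Chat, Slc5a7 and Gbx2 at 0. The 10 amygdala genes summed to 208 and 254 CPM, most of it Tshz2 and Foxp2, with 5 of them at 0. Markers of interneurons from the caudal eminence summed to 75.7 and 80.7 CPM and those from the medial eminence to 46.1 and 100.3 CPM, with Lhx6 and Sst at 0 by the rule. Those of olfactory bulb neurons summed to 93.6 and 188 CPM, of which Tshz1 made up most. The part of such cells in the ratios between libraries was not tested.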

How the data were processed

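Droplet-based 3' RNA-seq of 2 libraries, each from 2 pooled forebrains, was analysed from the unfiltered gene-by-barcode matrices. The deposited values are UMI counts. The file headers name Cell Ranger 4, and mm10 is the genome named in the submitters' processing notes. Whether the counting used strand or intronic reads is not given in the sources used here. The matrices held 32285 genes, and total UMIs were 123978461 in the wild-type and 150828048 in the knockout-labelled library.

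From the counts, members were summed per library and given as counts per 1000000 UMIs (CPM). A log2 ratio carries the exact 95% interval for a ratio of 2 Poisson counts, and a share the exact Clopper-Pearson interval. Where a count was 0, the ratio is a bound from a floor of 3 UMIs in that library's sum. PCR duplicates are removed by UMIs, but the intervals and floors still cover counting error only. The count minimum also leaves out genes that are low in both libraries. Free RNA was profiled in barcodes with under 100 UMIs. Doublets were scored with Scrublet in scanpy 1.11.5, the highest 0.8% per 1000 called cells being left out only in an alternative. Computation used numpy 2.4.6, scipy 1.17.1 and pandas 2.3.3, and the intervals were tested on simulated Poisson counts. These counts follow the model that the intervals assume and leave out differences between cells, so the test does not cover such differences.

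Named genes were the 10 with the widest ratio each way between libraries and the 12 each way between kinds of striatal neuron, without Xist, Tsix, Y-linked, haemoglobin, mitochondrial or unnamed genes, then called list members and the pathway lists. Some of these genes are not reported here. The cell members and gene lists were chosen with earlier results of these data known. Alternatives changed cell filters, the entry threshold, scaling, free RNA and the count minimum.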

Additional observations from a re-analysis of the deposited data

Results flagged for a closer look

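2 genes differed between the libraries in opposite directions in the 2 kinds of striatal neuron, each by the size rule, and this difference was not tested. Tafa2 was at 53.7 CPM in wild-type and 29.1 CPM in knockout-labelled Penk Drd2 striatal neurons (log2 ratio -0.88), but at 18.1 and 29.9 CPM in the Isl1 Ebf1 kind (0.72), so that the log2 ratios differed by -1.61. Its ratio in the Penk Drd2 kind was -0.98 without members with 2 or more UMIs of Neurod2 and Neurod6. Zeb2 was at 192 and 104 CPM in the Penk Drd2 kind (-0.88) and at 160 and 252 CPM in the Isl1 Ebf1 kind (0.66), a difference of -1.54. Without those members its ratio in the Penk Drd2 kind was -0.17 (-0.99 to 0.65). In the Isl1 Ebf1 kind, 14.4% of wild-type and 20.2% of knockout-labelled cells had 2 or more UMIs of Neurod2 and Neurod6. The highest doublet scores took in 7.66% and 13.1% of them. The part of such cells in the Isl1 Ebf1 ratios of Tafa2 and Zeb2 was not tested.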

How the results depend on the processing

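No paired analysis was possible because each genotype has 1 library and the labels give no replicate numbers. Taken among non-dividing GABAergic cells, the members' share had a ratio of 0.820 (0.667 to 1.01), against 1.02 among all called cells. With each cell weighted equally, 89 genes were higher and 100 lower in knockout-labelled members. The intervals used there were those of the summed counts, moved with the ratio. With no CPM minimum and at least 20 counts, 211 were higher and 193 lower of 9574 genes, and 339 were lower in the Penk Drd2 than in the Isl1 Ebf1 kind. Counts of genes stayed within 1.5 times under the other settings, but not always with the same genes: without the highest Scrublet scores, 35 of the 59 higher and 28 of the 58 lower genes were kept, and with at least 3 entry UMIs 19 and 25 were. Hs6st2 was 0.083 without the highest Scrublet scores and 0.49 without members with 2 or more Neurod2 and Neurod6 UMIs, where Sox5 was -0.56. The share among striatal neurons of both kinds, leaving out members that entered by Penk alone, the richest cell of each gene or barcodes called in both libraries were alternatives chosen after seeing the data. For Ttr no ratio was left after subtracting free RNA.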
